A study of Mus musculus with 13 samples.

Results

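Nucleotide synthesis and salvage was followed in maturing red cell precursors of the mouse fetal liver through 10 enzymes: Dctd, Dut, Tyms, Rrm1, Rrm2, Cad, Umps, Dck, Tk1 and Uprt. They are 10 of the 19938 genes measured, and each had at least 1 probe set that names it alone. The enzymes were chosen by their place in the pathway with earlier results of these arrays known, and Dctd was set apart from the other 9 because of its measured values. Its levels and differences are therefore given as a description with no test. Where a gene had more than 1 such probe set, as Tk1 and Uprt did, the one selected on the highest mean signal over all 13 arrays was used.

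The study asked what loss of ADAR1, the product of Adar, which edits adenosine in double-stranded RNA into inosine, does to red cell formation. RNA came from cells sorted by flow cytometry from fetal livers of 6 embryos at E14.5, with each sample taken from 1 embryo. Every embryo was EpoR-Cre ki/+, so that Cre recombinase was made under the erythropoietin receptor gene, which is active in the erythroid lineage, and the C57JB6 genetic background was listed for all. Knockout embryos (numbers 1, 10 and 11) were Adar1 fl/-, with 1 floxed and 1 null allele, and control embryos (2, 13 and 15) were Adar1 fl/+, so their erythroid cells could also lose 1 allele to Cre. The Cre reporter R26EYFP was ki/+ in all controls and in knockout embryo 1, and +/+ in knockout embryos 10 and 11. Ter119 is a surface antigen gained during erythroid maturation, and CD71 is the transferrin receptor. Ter119- CD71+ cells, the least mature, were profiled from 3 controls and 3 knockouts. Ter119+ CD71+ cells came from 3 controls and from knockouts 10 and 11, and Ter119+ CD71med cells, with less CD71, from controls 13 and 15. R26EYFP and Adar1 genotype therefore coincide in the Ter119+ CD71+ samples and cannot be told apart there.

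Cells that divide need the 4 DNA building blocks in balance, and erythroid precursors divide several times before they lose the nucleus. Ribonucleotide reductase makes deoxynucleotides from ribonucleotides, and the thymidine branch makes dUMP, which thymidylate synthase methylates to dTMP. dUMP can come from dCMP through dCMP deaminase, the product of Dctd, or from dUTP through the dUTPase encoded by Dut. Pyrimidines are built from simple precursors by Cad and Umps, while Dck and Tk1 recover nucleosides. Uprt is related to enzymes that recover a base.

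The 150 bases upstream of the start of 3 members are shown because these genes took different courses along maturation: Dctd and Uprt were lower in Ter119+ CD71+ cells and Rrm2 was higher. The sequences are from RefSeq on GRCm38.p6 and run 5′ to 3′ on the plus strand, at chr8:48109808-48109957 for Dctd (the first of its 3 listed starts), chrX:104482653-104482802 for Uprt and chr12:24708104-24708253 for Rrm2. Capitals mark the CCAAT box, the GC box with the letters GGGCGG and the GATA motif, searched as AGATAA and also as TGATAA, on both strands.
Dctd: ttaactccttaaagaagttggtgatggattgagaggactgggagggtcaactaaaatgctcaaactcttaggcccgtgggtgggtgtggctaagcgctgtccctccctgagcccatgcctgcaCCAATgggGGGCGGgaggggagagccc
Uprt: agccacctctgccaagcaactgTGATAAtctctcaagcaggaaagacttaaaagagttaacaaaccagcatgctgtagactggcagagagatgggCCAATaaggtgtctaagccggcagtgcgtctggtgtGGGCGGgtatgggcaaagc
Rrm2: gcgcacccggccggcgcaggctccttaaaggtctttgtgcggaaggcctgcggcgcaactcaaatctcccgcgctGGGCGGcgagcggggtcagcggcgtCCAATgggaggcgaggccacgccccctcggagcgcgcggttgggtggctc
All 10 members matched a promoter entry. In windows from 250 bases before to 50 after the start, CCAAT was found in 4 of 10 members (Dctd, Rrm1, Rrm2 and Uprt) and in 37.9% of 27025 windows of 300 bases. GGGCGG was found in 9 of 10, all but Rrm1, against 35.9% of windows. The GATA motif was found in Uprt and Umps, and in 19.0% of windows. The E2F motif forms TTTCCCGC and TTTGGCGC were found in 0 of 10 members and in 1.63% of windows. These matches describe the letters in the windows and show nothing about binding.

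Values are log2 signals, so a difference of 1 is a 2-fold change, and a level is compared only within 1 gene. Arrays of 1 group differed from each other by a median of 0.112 to 0.178 per gene in the groups of 3, by 0.205 between both CD71med arrays and by 0.247 between both knockout Ter119+ CD71+ arrays. The signal of Adar was not lower in knockout cells (7.52 ± 0.13 against 7.60 ± 0.34 in Ter119- CD71+ cells, SD, n = 3 each), so its probe set gave no check of the genotype labels. The erythroid identity of the cells was checked on 11 measured markers, whose mean ran from 10.11 to 11.08 over all arrays, and the progenitor gene Kit lay at 8.50 to 9.19 in Ter119- cells and at 5.51 to 6.28 in Ter119+ cells. A list of 14 myeloid genes had a mean of 6.11 to 7.63 in knockout Ter119- CD71+ arrays, highest in embryo 10, and of 5.29 to 5.67 in the matching controls. There 4 of the 14 passed the test as higher, where 1.35% of all genes did. In control Ter119+ CD71+ arrays the list mean was 5.44 to 5.61. In CD71med arrays it was 6.03 to 6.10, and 0 of the 14 passed at that step. The mean of 11 hepatocyte genes ran from 5.72 in a knockout Ter119- CD71+ array to 7.55 in a CD71med array. The group means of the macrophage and lymphoid lists lay between 4.75 and 5.41, and the megakaryocyte list ran from 5.80 to 7.12. In such sorted bulk samples, fewer cells of a type and less RNA per cell cannot be told apart.

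Dctd had 2 levels in these cells: high in all Ter119- CD71+ arrays and low in all Ter119+ arrays. In control Ter119- CD71+ cells it lay at 10.13, 10.39 and 10.29 in embryos 2, 13 and 15, and in the Ter119+ CD71+ cells of these embryos at 6.11, 7.48 and 6.66. The groups did not overlap, and the Ter119+ arrays were spread more widely. In CD71med cells it lay at 6.95 in embryo 13 and 6.19 in embryo 15. Knockout Ter119- CD71+ cells had 9.87, 9.79 and 10.33 in embryos 1, 10 and 11, and knockout Ter119+ CD71+ cells had 6.17 and 7.28 in embryos 10 and 11. In order, control Ter119- CD71+ cells came first with a mean of 10.27 ± 0.13 (SD, n = 3), then the knockout cells of that population (SD 0.29, n = 3), and then 6.75 ± 0.69 (control Ter119+ CD71+, n = 3), 6.73 ± 0.78 (knockout, n = 2) and 6.57 ± 0.54 (CD71med, n = 2). The arrays of the first pair overlapped, as did those of the last 3 groups. No Ter119- array overlapped a Ter119+ array.

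Between control Ter119- CD71+ and Ter119+ CD71+ cells the mean of Dctd differed by -3.52 (SE 0.33), 11.5-fold lower, and 0 of 19938 genes had a larger decrease. In the knockouts it differed by -3.27 (SE 0.37), 9.65-fold lower, and again 0 genes fell further. Within embryos the change was -4.01, -2.91 and -3.63 in controls 2, 13 and 15, and -3.62 and -3.05 in knockouts 10 and 11. Every embryo with both populations showed the drop, largest in control 2 and smallest in control 13. From Ter119+ CD71+ to CD71med cells Dctd differed by -0.18 (SE 0.37), while within the embryos that had both arrays it changed by -0.53 in embryo 13 and -0.47 in embryo 15. Embryo 2, the lowest of the Ter119+ CD71+ controls, has no CD71med array. Kit, which has the same high and low populations, was 8.70 ± 0.07 and 5.66 ± 0.12 in the control groups, and its part in the result was not tested.

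**Figure D1:**
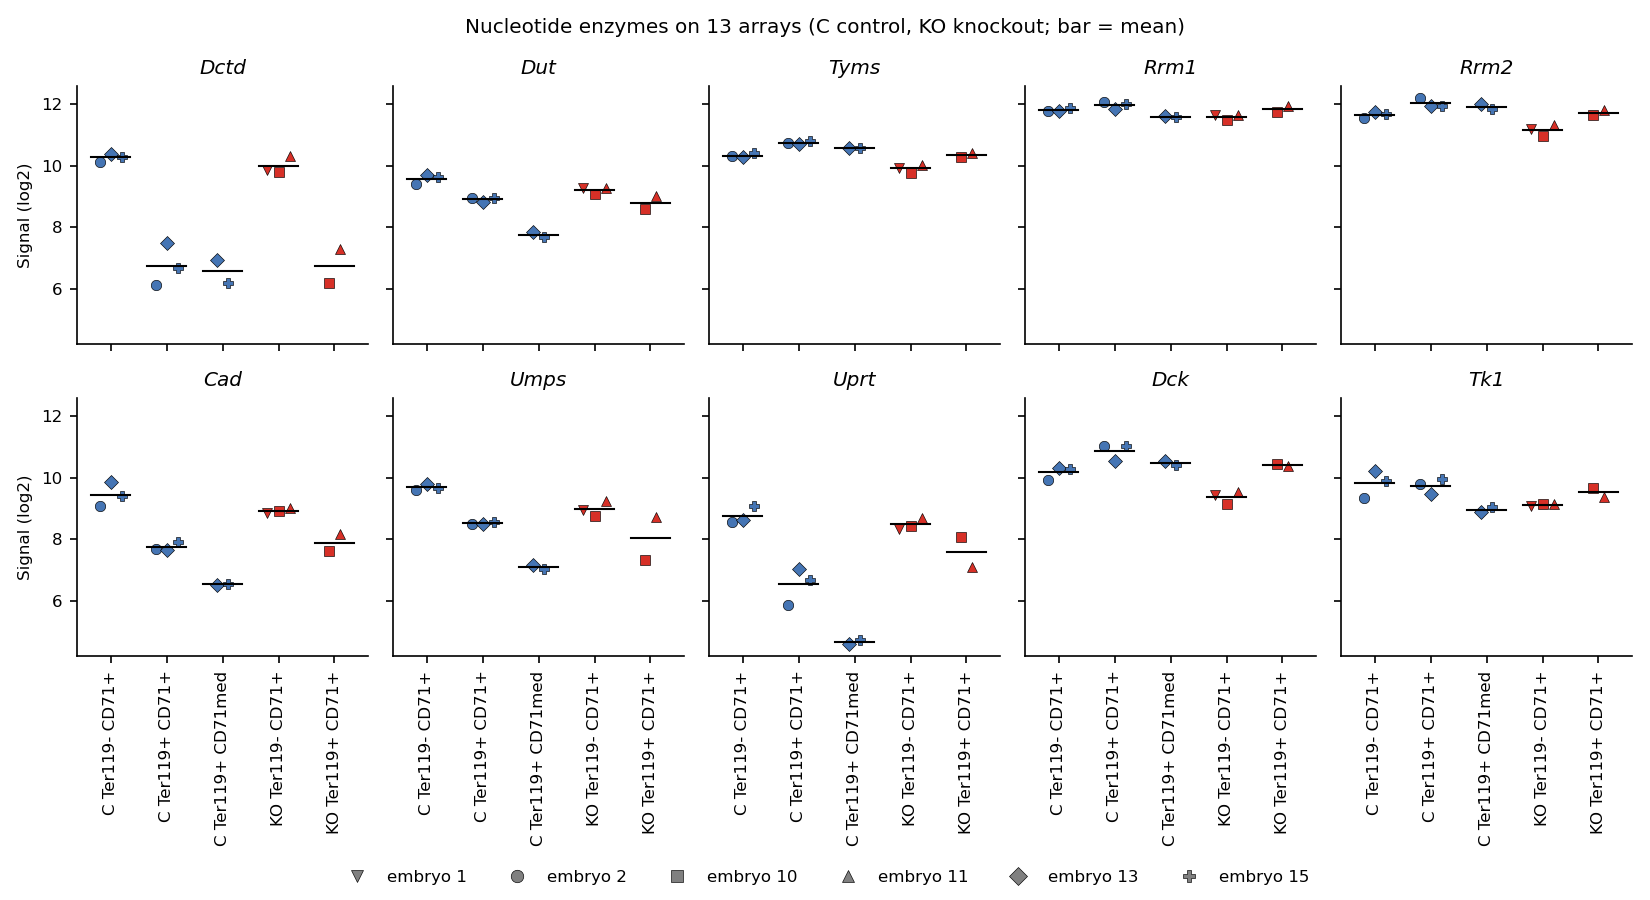
Deposited log2 signal (vertical axes) of the 10 enzymes in each of the 13 arrays, by group; points are arrays and horizontal bars are group means. Dctd is near 10 in both Ter119- CD71+ groups and between 6.11 and 7.48 in all Ter119+ arrays, whereas Rrm1 stays between 11.49 and 12.06 throughout.

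The other 9 enzymes parted at the first maturation step. From control Ter119- CD71+ to Ter119+ CD71+ cells, Cad, Umps, Uprt and Dut fell while Dck, Tyms and Rrm2 rose, and Rrm1 and Tk1 did not pass the test. The count was thus 3 higher, where 7.27% of all genes were called higher, and 4 lower, where 11.7% of all genes were called lower. A call is an adjusted p below 0.05 in limma with Benjamini-Hochberg adjustment over all 19938 genes. The median over the 9 was -0.08 and that over all genes 0.04. With arrays centred on their medians, quantile-normalized again, or with embryo as a fixed block, Rrm2 lost its call and the count became 2 higher and 4 lower.

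At the second control step, from Ter119+ CD71+ to CD71med cells, 6 of the 9 fell (Uprt, Umps, Cad, Dut, Tk1 and Rrm1) and 0 rose, where 9.21% of all genes were called lower and 4.11% higher. All 9 differences were negative, with a median of -0.78 against 0.08 over all genes. Without the CD71med array of embryo 15, 3 stayed called: Uprt, Cad and Dut. In the knockouts, Dck, Rrm2 and Tyms rose and Cad and Umps fell between Ter119- CD71+ and Ter119+ CD71+ cells. These are 3 higher against 4.50% of all genes and 2 lower against 6.24%, with a median of 0.26 against 0.05. With arrays centred on their medians the count was 2 higher and 1 lower, and with a myeloid covariate it was 0. The control Ter119+ CD71+ arrays enter both control steps, so these are not independent.

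**Figure D2:**
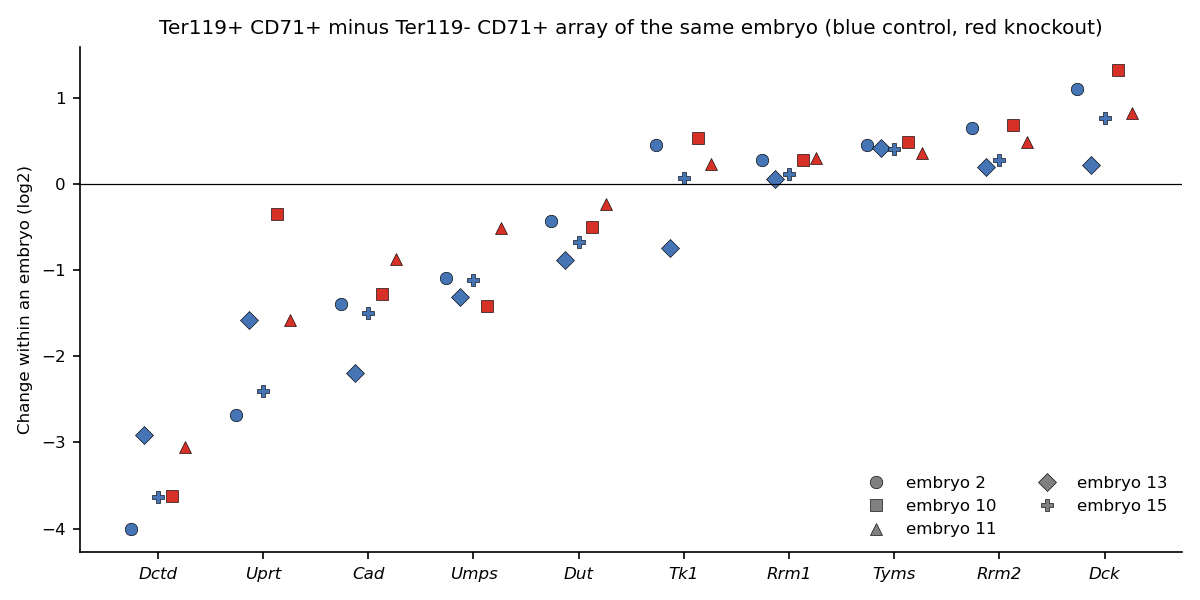
Change in log2 signal from the Ter119- CD71+ to the Ter119+ CD71+ array of the same embryo (vertical axis) for the 10 enzymes; symbols mark the 5 embryos with both arrays, blue for controls and red for knockouts. Dctd lies between -4.01 and -2.91, Uprt, Cad, Umps and Dut are below 0 in each of the 5 embryos, and Rrm1, Tyms, Rrm2 and Dck are above 0 in each.

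In the thymidine branch, Dut fell at both control steps, and Tyms rose at the first. Dut, whose product removes dUTP and yields dUMP, was at 9.39, 9.70 and 9.64 in control Ter119- CD71+ cells of embryos 2, 13 and 15, at 8.96, 8.82 and 8.96 in their Ter119+ CD71+ cells, and at 7.84 and 7.67 in CD71med cells of embryos 13 and 15. No groups overlapped. It fell by 0.66 (SE 0.13, 1.59-fold, limma adjusted p = 0.00194) and then fell by 1.15 (SE 0.14, 2.23-fold, adjusted p = 0.000394). Its knockout arrays were at 9.27, 9.08 and 9.27 before and at 8.58 and 9.02 after the step, a difference of -0.40 (SE 0.14) that did not pass (adjusted p = 0.102). Without the knockout Ter119+ CD71+ array of embryo 11 it was -0.62 (adjusted p = 0.0166).

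Tyms, thymidylate synthase, was at 10.30, 10.27 and 10.42 in control Ter119- CD71+ cells, at 10.75, 10.69 and 10.81 in Ter119+ CD71+ cells and at 10.58 and 10.57 in CD71med cells. The middle group was the highest and overlapped neither of the others. It rose by 0.42 (SE 0.10, adjusted p = 0.00717) at the first step, by 0.45, 0.42 and 0.40 within the 3 embryos, and differed by -0.18 (SE 0.11, adjusted p = 0.320) at the second. In knockouts it went from 9.94, 9.77 and 10.03 to 10.27 and 10.40, a rise of 0.41 (SE 0.11, adjusted p = 0.0281). That call was lost with embryo as a fixed block (adjusted p = 0.133), centred arrays (adjusted p = 0.0852) and array weights (adjusted p = 0.159). It was also lost with the myeloid mean as a covariate (adjusted p = 0.380) and only the groups compared (adjusted p = 0.106). Nor did it hold without the Ter119- CD71+ array of embryo 1 or 10 (adjusted p = 0.0633 or 0.111). The call was lost as well without the Ter119+ CD71+ array of embryo 10 or 11, which left a lone array in that group. The rise was then 0.48 or 0.35.

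Ribonucleotide reductase has a large catalytic subunit, Rrm1, and a small radical-bearing subunit, Rrm2. Rrm1 was at 11.78, 11.79 and 11.89 in control Ter119- CD71+ cells, at 12.06, 11.85 and 12.00 in Ter119+ CD71+ cells and at 11.61 and 11.57 in CD71med cells. The first pair of groups overlapped and CD71med lay below both. The first difference was 0.15 (SE 0.10, adjusted p = 0.406). At the second step it fell by 0.38 (SE 0.11, 1.30-fold, adjusted p = 0.0371), which lost its call with embryo as a fixed block (adjusted p = 0.260) and without the Ter119+ CD71+ array of embryo 2 or 15 or either CD71med array (adjusted p 0.0725 to 0.183). That second-step call was also lost with the myeloid mean as a covariate (adjusted p = 0.141), array weights (adjusted p = 0.0691) and only the groups compared (adjusted p = 0.0879). Knockout arrays were at 11.64 to 11.65 in embryos 1 and 11 and 11.49 in embryo 10, then at 11.76 and 11.95, a difference of 0.26 (SE 0.11, adjusted p = 0.178).

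Rrm2 was at 11.56, 11.74 and 11.68 in control Ter119- CD71+ cells, at 12.21, 11.95 and 11.95 in Ter119+ CD71+ cells and at 11.99 and 11.84 in CD71med cells. The first groups did not overlap. The rise of 0.37 (SE 0.12, 1.30-fold, adjusted p = 0.0415) was lost with embryo as a fixed block (adjusted p = 0.0915) and when any 1 of the 6 arrays was left out (adjusted p 0.0529 to 0.193), so it rested on all of them. In knockouts it rose from 11.19, 10.96 and 11.31 to 11.64 and 11.80, by 0.57 (SE 0.13, 1.48-fold, adjusted p = 0.0139). That call was lost with array weights (adjusted p = 0.0988), the myeloid mean as a covariate (adjusted p = 0.284) and only the groups compared (adjusted p = 0.0607). It was also lost without the Ter119- CD71+ array of embryo 10 (adjusted p = 0.0586). Leaving out the Ter119+ CD71+ array of embryo 11, which left a lone array in that group, ended the call too. The rise was then 0.49.

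Of the 3 enzymes of new pyrimidine synthesis, Cad and Umps fell at every step. Dhodh, which acts between them, is named here after its values were seen. It fell by 0.88 at the first control step (adjusted p = 0.000206) and fell by 0.66 in knockouts (adjusted p = 0.00762), and it differed by -0.08 at the second control step (adjusted p = 0.728). Cad, which carries the first 3 activities of the route, was at 9.09, 9.85 and 9.41 in control Ter119- CD71+ cells, at 7.69, 7.66 and 7.91 in Ter119+ CD71+ cells and at 6.51 and 6.56 in CD71med cells. No groups overlapped. It fell by 1.69 (SE 0.18, 3.24-fold, adjusted p = 1.57e-05) and fell by 1.22 (SE 0.20, 2.33-fold, adjusted p = 0.00152). In knockouts it fell from 8.85, 8.91 and 9.03 to 7.63 and 8.16, a change of -1.04 (SE 0.20, 2.05-fold, adjusted p = 0.00371). Without the knockout Ter119+ CD71+ array of embryo 10 that change was -0.77 (adjusted p = 0.0688).

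Umps, the last enzyme on the way to UMP, was at 9.59, 9.81 and 9.68, then at 8.50, 8.50 and 8.56, and then at 7.18 and 7.03 in the same order of control groups. Again no groups overlapped, and the Ter119+ CD71+ arrays were close to each other. It fell by 1.18 (SE 0.25, 2.26-fold, adjusted p = 0.00332) and fell by 1.42 (SE 0.28, 2.67-fold, adjusted p = 0.00458), the second with adjusted p = 0.0609 without the CD71med array of embryo 15. In knockouts the arrays went from 8.96, 8.76 and 9.23 to 7.34 in embryo 10 and 8.72 in embryo 11, a change of -0.95 (SE 0.28, adjusted p = 0.0412). This knockout call was lost with centred arrays (adjusted p = 0.0845) and array weights (adjusted p = 0.0610). It was also lost with the myeloid mean as a covariate (adjusted p = 0.0841) and only the groups compared (adjusted p = 0.212). The knockout Ter119+ CD71+ arrays lay far apart. Without that of embryo 10 the difference was -0.26 (adjusted p = 0.551), and leaving out any 1 of the 3 knockout Ter119- CD71+ arrays (embryo 1, 10 or 11) also ended the call (adjusted p 0.0513 to 0.140).

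The salvage kinases and Uprt went separate ways. Dck, deoxycytidine kinase, was at 9.94, 10.33 and 10.29 in control Ter119- CD71+ cells, at 11.04, 10.54 and 11.05 in Ter119+ CD71+ cells and at 10.54 and 10.40 in CD71med cells. It rose by 0.69 (SE 0.16, 1.61-fold, adjusted p = 0.00585) and then differed by -0.41 (SE 0.18, adjusted p = 0.150). Without the control Ter119+ CD71+ array of embryo 13 the latter was -0.58 (adjusted p = 0.0434). In knockouts it rose from 9.44, 9.14 and 9.55 to 10.46 and 10.37, by 1.04 (SE 0.18, 2.05-fold, adjusted p = 0.00179), with no overlap. Its within-embryo rises were 1.10, 0.22 and 0.76 in controls and 1.32 and 0.82 in knockouts.

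Tk1, the thymidine kinase of S phase, was at 9.35, 10.21 and 9.89 in control Ter119- CD71+ cells, at 9.79, 9.46 and 9.96 in Ter119+ CD71+ cells and at 8.88 and 9.04 in CD71med cells. The first groups overlapped, with changes of 0.45, -0.75 and 0.07 within embryos 2, 13 and 15. The mean difference was -0.08 (SE 0.19, adjusted p = 0.848), and its sign turned when the probe sets were averaged (0.06) or an array of embryo 13 was left out. At the second step it fell by 0.78 (SE 0.21, 1.71-fold, adjusted p = 0.0248), a call lost after quantile normalization (adjusted p = 0.159) and without the Ter119+ CD71+ array of embryo 2 or 15 or either CD71med array (adjusted p 0.0597 to 0.105). In knockouts Tk1 was at 9.07, 9.14 and 9.16 before and at 9.67 and 9.39 after the step, a difference of 0.41 (SE 0.21, adjusted p = 0.284). Its second probe set gave 0.21 and -0.53 for the control steps and 0.44 for the knockout step.

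Uprt, a relative of the uracil phosphoribosyltransferases, had the largest changes after Dctd at the first control step among the 10. It was at 8.56, 8.62 and 9.08 in control Ter119- CD71+ cells, at 5.88, 7.04 and 6.68 in Ter119+ CD71+ cells and at 4.59 and 4.73 in CD71med cells. No groups overlapped at either step. Both CD71med values lay below the array medians (5.66 to 5.89 over all probe sets), and RMA processing compresses small signals. It fell by 2.22 (SE 0.28, 4.65-fold, adjusted p = 6.86e-05), where 20 of all genes had a larger decrease, and fell by 1.88 (SE 0.31, 3.67-fold, adjusted p = 0.00177), where 4 had. The knockout arrays were at 8.33, 8.43 and 8.69 before and at 8.08 in embryo 10 and 7.11 in embryo 11 after the step. The difference of -0.89 (SE 0.31) did not pass (adjusted p = 0.0899), but it passed with embryo as a fixed block (-0.97, adjusted p = 0.0479), with the mean of both probe sets (-0.71, adjusted p = 0.0449) and without the Ter119+ CD71+ array of embryo 10 (-1.37, adjusted p = 0.0337). The second probe set of Uprt moved less, by -1.10 and -0.36 at the control steps and by -0.53 in knockouts.

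Knockout against control was compared next, to ask what ADAR1 loss does to these enzymes within 1 sorted population. In Ter119- CD71+ cells Dck, Rrm2 and Tyms were lower in knockouts. The count was 3 lower of 9, where 0.858% of all genes were called lower, and 0 higher, where 1.35% of all genes were called higher. All 9 differences were negative and 8 had an unadjusted p below 0.05, with a median of -0.51 against 0.00 over all genes. The share of all genes with an unadjusted p below 0.05 was not counted, so the 8 only describe these enzymes. Dck differed by -0.81 (SE 0.16, 1.75-fold, adjusted p = 0.0167), with means of 10.19 ± 0.21 in controls and 9.38 ± 0.21 in knockouts (SD, n = 3 each). Rrm2 differed by -0.51 (SE 0.12, 1.42-fold, adjusted p = 0.0447) and Tyms by -0.41 (SE 0.10, 1.33-fold, adjusted p = 0.0484). For each of these 3 genes every knockout array was below every control array.

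The same was true of Rrm1 (-0.23, SE 0.10, adjusted p = 0.307), Tk1 (-0.69, SE 0.19, adjusted p = 0.0760), Dut (-0.37, SE 0.13, adjusted p = 0.176), Umps (-0.71, SE 0.25, adjusted p = 0.174) and Cad (-0.52, SE 0.18, adjusted p = 0.165), none of which passed. The Uprt arrays overlapped (-0.27, SE 0.28, adjusted p = 0.792), and so did those of Dctd (-0.27, SE 0.33). The share of all genes whose arrays separated without overlap was not counted. The separations therefore only describe these genes. The 3 calls were sensitive to single libraries. Dck lost its call when knockout embryo 10, control embryo 13 or control embryo 15 was left out (adjusted p 0.0894 to 0.107), Rrm2 also without knockout embryo 1 (adjusted p 0.117 to 0.248 over these 4), and Tyms without any 1 of the 6 arrays (adjusted p 0.0512 to 0.278). Without control embryo 2, Tk1 (-0.93, adjusted p = 0.00954) and Cad (-0.70, adjusted p = 0.0343) passed. With only the groups compared Umps passed (-0.71, adjusted p = 0.0395), while Rrm2 and Tyms did not (adjusted p = 0.0690 and 0.0797).

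Several other measures moved with this comparison. The myeloid list mean was higher in the knockout arrays (6.64 ± 0.86 against 5.43 ± 0.21, SD, n = 3 each), and with it as a covariate 0 of 9 were called and Dck was -0.59 (adjusted p = 0.917). With R26EYFP genotype as a covariate 0 of 9 were called and Dck was -0.75 (adjusted p = 0.389). Only knockout embryo 1 shared the ki/+ reporter with the controls, so this fit separates the reporter from the knockout poorly. With array weights 8 of 9 were called. Over all genes, too, far more were called with array weights than in the main fit, and far fewer with either covariate. The enzyme counts under these settings were not tested against those over all genes. The mean of 19 proliferation markers was 10.15 ± 0.07 in knockouts and 10.42 ± 0.03 in controls, with 2 of 19 called lower. The erythroid list mean was 10.20 ± 0.10 against 10.50 ± 0.13, with 1 of 11 called lower. The hepatocyte list mean was 5.94 ± 0.22 against 6.38 ± 0.09, also with 1 of 11 called lower. Over all genes 0.858% were called lower. The part of these measures in the lower enzyme signals was not tested beyond the covariate fits.

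**Figure D3:**
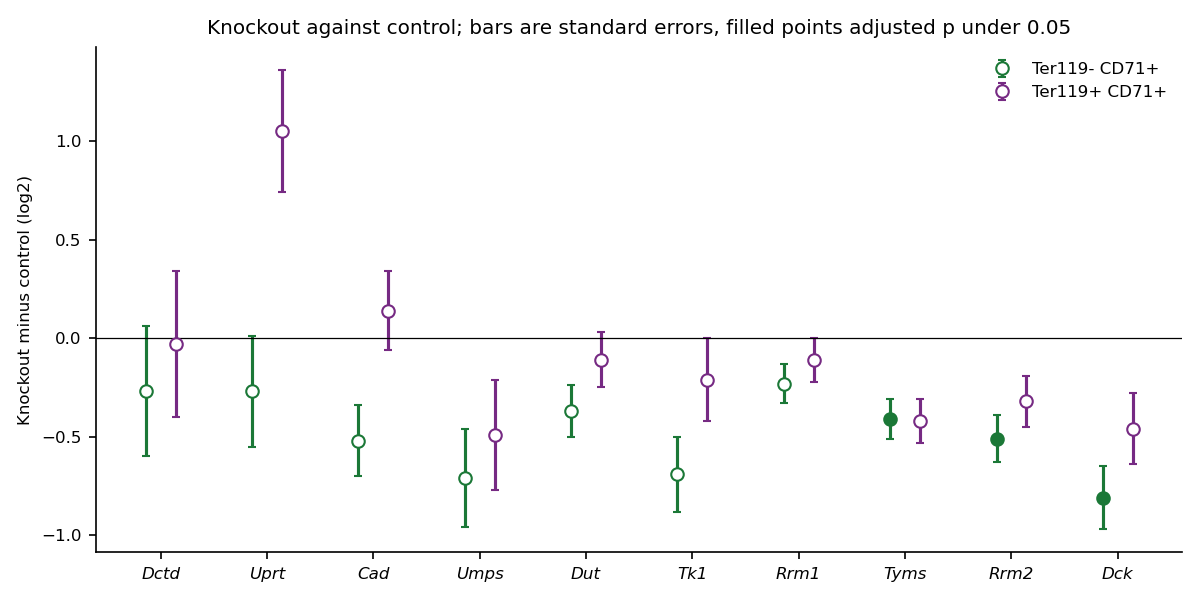
Knockout minus control difference in log2 signal (vertical axis) for the 10 enzymes in Ter119- CD71+ (green) and Ter119+ CD71+ (purple) cells; bars are standard errors and filled points passed the test. In Ter119- CD71+ cells all 10 points lie below 0, and in Ter119+ CD71+ cells Uprt stands at 1.05 with an SE of 0.31.

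In Ter119+ CD71+ cells 0 of the 9 enzymes passed in limma, where 1.48% of all genes were called higher and 1.08% lower. An unadjusted p below 0.05 was found for 4 of 9, and the share of all genes at that level was not counted. Of the differences 7 were negative, with a median of -0.21 against 0.02 over all genes. Tyms differed by -0.42 (SE 0.11, adjusted p = 0.0676), Dck by -0.46 (SE 0.18, adjusted p = 0.244) and Rrm2 by -0.32 (SE 0.13, adjusted p = 0.319), and in each of these genes both knockout arrays were below all 3 controls. The share of all genes with such a separation was not counted here either. Rrm1 (-0.11, SE 0.11), Tk1 (-0.21, SE 0.21), Dut (-0.11, SE 0.14), Umps (-0.49, SE 0.28) and Cad (0.14, SE 0.20) had overlapping arrays and adjusted p from 0.535 to 0.877. Dctd differed by -0.03 (SE 0.37), within the spread of both groups. The hepatocyte list mean was 6.37 ± 0.24 in these knockouts (SD, n = 2) and 6.97 ± 0.15 in controls (n = 3). Of its 11 genes 2 were called lower (1.08% of all genes), and its part was not tested.

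Uprt was the one enzyme whose knockout arrays lay above all controls there, at 8.08 and 7.11 against 5.88, 7.04 and 6.68. The difference was 1.05 (SE 0.31, 2.08-fold) with an adjusted p of 0.104. Leaving out knockout embryo 11 gave 1.54 (adjusted p = 0.0187), and leaving out control embryo 13 gave 1.31 (adjusted p = 0.0419), both past the threshold. The second probe set gave 0.44. Uprt is on the X chromosome. Xist, the RNA of the inactive X, was high in embryos 2, 10, 11 and 13 and low in 1 and 15. The Uprt signal of embryo 15 lay between the other 2 controls in Ter119+ CD71+ cells. In Ter119- CD71+ cells it lay above both. The part of the X chromosome in the Uprt difference was not tested. Without knockout embryo 11, Umps (-1.18, adjusted p = 0.00239) and Tyms (-0.49, adjusted p = 0.0454) also passed, so the count of 0 became 3.

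Whether the knockout effect differed between populations was tested as an interaction, in which 0.0100% of all genes (2 genes) were called. Of the 9 enzymes 0 passed in limma and 2 had an unadjusted p below 0.05, a level for which the share of all genes was not counted. Uprt had an interaction of 1.33 (SE 0.41, adjusted p = 0.543) and Cad of 0.66 (SE 0.26, adjusted p = 0.844). Dctd had 0.25 (SE 0.49). The effects in Ter119- CD71+ and Ter119+ CD71+ cells were therefore not shown to differ for any of the 9.

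Other genes of nucleotide metabolism were counted as a list of 49 measured genes without these 10. Most that passed in the maturation steps fell. At the first control step 22 fell (11.7% of all genes did) and 1 rose (7.27% of all genes), with a median of -0.41 against 0.04 over all genes. At the second 16 fell (9.21% of all genes) and 1 rose (4.11% of all genes), with a median of -0.26 against 0.08. In knockouts 15 fell (6.24% of all genes) and 2 rose (4.50% of all genes), with a median of -0.32 against 0.05. The 2 of 49 that rose in knockouts are near the share over all genes. Among 12 genes of purine synthesis 7, 6 and 5 fell at these steps and 0 rose. Among 12 genes of deoxynucleotides and the thymidylate cycle 6, 5 and 5 fell, among 14 pyrimidine genes 6, 4 and 3, and among 11 genes of purine salvage and turnover 3, 1 and 2, of which the 1 of 11 is near the share over all genes. Proliferation markers ran the other way at the first step, with 6 of 19 higher (7.27% of all genes) and 0 lower in controls. In knockouts 4 were higher (4.50% of all genes) and 0 lower. At the second control step 10 of 19 fell (9.21% of all genes). The hepatocyte list moved with these steps as well, and its part was not tested. Of its 11 genes 7 were higher at the first control step (7.27% of all genes) and 4 at the second (4.11% of all genes).

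Mthfd1, which makes the folate units used for purines and thymidylate, showed the fall plainly. It was at 9.73, 10.48 and 10.12 in control Ter119- CD71+ cells, at 7.86, 8.37 and 8.46 in Ter119+ CD71+ cells and at 6.62 and 6.51 in CD71med cells. It fell by 1.88 (SE 0.20, 3.67-fold, adjusted p = 2.23e-05) and fell by 1.67 (SE 0.23, 3.17-fold, adjusted p = 0.000593), and in knockouts it fell by 1.23 (SE 0.23, adjusted p = 0.0031). Nme2, a nucleoside diphosphate kinase, changed by -1.51, -1.07 and -1.43 at the same 3 steps (adjusted p = 2.33e-05, 0.00222 and 0.000282). Atic, which completes the purine ring, changed by -1.34, -1.73 and -1.02 (adjusted p = 8.18e-05, 0.000223 and 0.00347). Aprt, which salvages adenine, fell by 0.96 at the first control step (adjusted p = 6.75e-05) and fell by 0.57 in knockouts (adjusted p = 0.013), and Ctps2, a CTP synthase, changed by -0.55 and -0.99 there (adjusted p = 0.00464 and 0.000451). In Ter119+ arrays Ctps2 lay at 5.40 to 5.69, near or below the array medians (5.66 to 5.89), where RMA processing compresses small signals. Without the knockout Ter119+ CD71+ array of embryo 10, the knockout falls of Mthfd1, Atic and Aprt did not pass (adjusted p = 0.0592, 0.0628 and 0.125). With the myeloid mean as a covariate those of Mthfd1 and Aprt did not pass (adjusted p = 0.0723 and 0.198), nor did that of Aprt after repeated quantile normalization or with array weights (adjusted p = 0.0525 and 0.0652).

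Nt5c3, a nucleotidase that clears pyrimidine nucleotides from maturing red cells, was the one gene of the list that rose at both control steps. It was at 8.92, 8.52 and 8.79 in control Ter119- CD71+ cells, at 10.26, 10.68 and 10.57 in Ter119+ CD71+ cells and at 11.73 and 11.59 in CD71med cells. The groups lay far apart, with rises of 1.76 (SE 0.13, 3.39-fold, adjusted p = 8.45e-07) and 1.15 (SE 0.14, 2.23-fold, adjusted p = 0.000381). Knockout arrays went from 9.08, 9.14 and 9.04 to 9.84 and 9.91, a rise of 0.79 (SE 0.14, adjusted p = 0.00297). In Ter119+ CD71+ cells it was thus lower in knockouts (-0.63, SE 0.14, adjusted p = 0.033). Leaving out the array of knockout embryo 10, of control embryo 13 or of control embryo 15 ended that call (adjusted p 0.0951 to 0.214). It was also lost with centred arrays (adjusted p = 0.0590), repeated quantile normalization (adjusted p = 0.0627), array weights (adjusted p = 0.182), R26EYFP genotype (adjusted p = 0.880) and only the groups compared (adjusted p = 0.188). The R26EYFP fit cannot separate the reporter from the knockout in this population. In Ter119- CD71+ cells it differed by 0.34 (adjusted p = 0.213), and the interaction was -0.97 (SE 0.19, adjusted p = 0.180). Cmpk2, a mitochondrial UMP-CMP kinase, rose by 0.66 in the knockout step (SE 0.16, adjusted p = 0.0163) and did not pass without either Ter119+ CD71+ array or the Ter119- CD71+ array of embryo 11 (adjusted p 0.0567 to 0.0659), with array weights (adjusted p = 0.109) or with the myeloid mean (adjusted p = 0.0745).

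**Figure D4:**
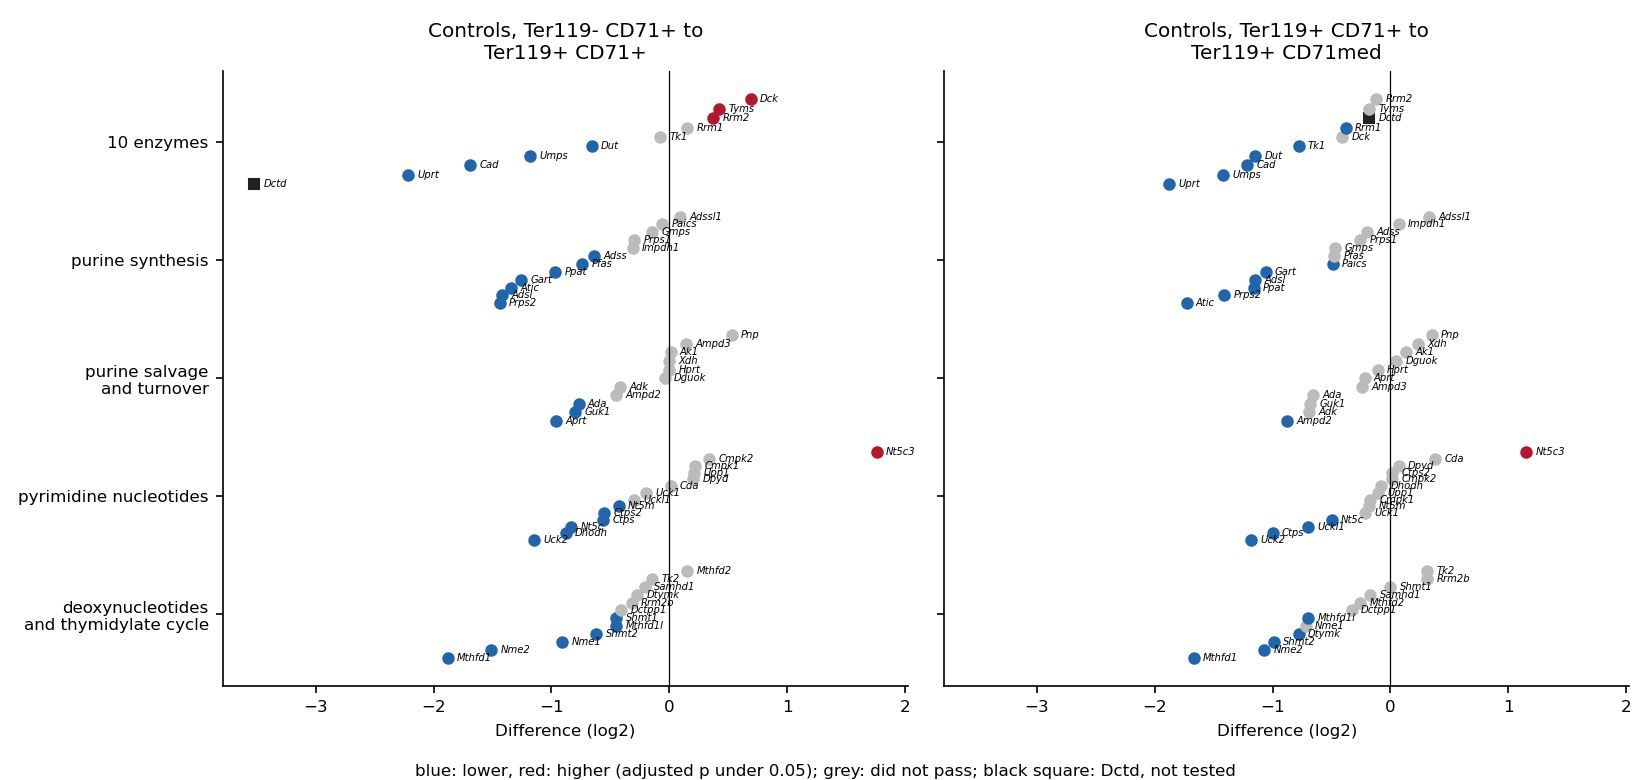
Difference in log2 signal (horizontal axes) at the first control step (left) and the second (right) for the 10 enzymes and the 49 other genes of nucleotide metabolism, in rows by list; each point is a gene, blue if it fell, red if it rose and grey if it did not pass, and the black square is Dctd, which was not tested. Dctd stands at -3.52 on the left and -0.18 on the right, Uprt, Cad, Umps and Mthfd1 are blue in both panels, and Nt5c3 is red in both.

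By genotype, 1 of these 49 genes was higher and 0 lower in knockout Ter119- CD71+ cells, where 1.35% of all genes were higher and 0.858% lower. In Ter119+ CD71+ cells 2 were higher and 1 lower, where the shares over all genes were 1.48% and 1.08%. Counts this small are not set apart from those shares. Ampd2, an AMP deaminase, was at 10.22, 10.48 and 9.83 in knockout Ter119- CD71+ cells against 9.20, 9.76 and 9.37 in controls, and at 10.61 and 10.27 against 8.98, 8.86 and 9.15 in Ter119+ CD71+ cells. The knockout arrays were above the controls in both populations, by 0.73 (SE 0.18, 1.66-fold, adjusted p = 0.0485) and by 1.45 (SE 0.20, 2.72-fold, adjusted p = 0.00135). The first call was lost when the array of embryo 1 or 10 of the knockouts, or of embryo 2 or 15 of the controls, was left out (adjusted p 0.0906 to 0.267). It was also lost with the myeloid mean as a covariate, which left 0.25 (adjusted p = 0.980), with R26EYFP genotype (adjusted p = 0.450), after repeated quantile normalization (adjusted p = 0.0550) and with only the groups compared (adjusted p = 0.0972). The second call was lost with R26EYFP genotype as a covariate (1.51, adjusted p = 0.201). In Ter119+ CD71+ cells every knockout was +/+ and every control ki/+. That covariate therefore cannot separate the reporter from the knockout there. Ampd2 fell by 0.88 at the second control step (SE 0.20, adjusted p = 0.0101), a call lost without either CD71med array (adjusted p = 0.0587 and 0.0547) and after repeated quantile normalization (-0.55, adjusted p = 0.155). Shmt2, the mitochondrial serine hydroxymethyltransferase, was at 10.23 and 10.48 in knockout Ter119+ CD71+ cells against 9.76, 9.48 and 9.74 in controls, higher by 0.70 (SE 0.13, 1.62-fold, adjusted p = 0.0123). This call was lost with array weights (adjusted p = 0.107), with R26EYFP genotype as a covariate (adjusted p = 0.651) and with only the groups compared (adjusted p = 0.135). At the control steps it changed by -0.62 (adjusted p = 0.00183) and -0.99 (adjusted p = 0.000549). In the interaction 0 of the 49 passed in limma and 7 had an unadjusted p below 0.05, again without a share of all genes to compare.

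Genes whose signals ran most like that of Dctd were ranked by Pearson r over the 13 arrays, which share 6 embryos and 3 sorted populations, so r mostly follows the step at which Ter119 is gained. The highest were Eif1a (0.992), Nln (0.982), Tagln2 (0.979), Timm9 (0.979) and Naf1 (0.979), with first control steps of -1.54, -1.60, -2.94, -1.49 and -2.47. The lowest were Sox6 (-0.987), Arhgef39 (-0.976), Fbxo7 (-0.972), Hbq1b (-0.971) and St3gal1 (-0.971). Of the other enzymes, Cad (0.882), Umps (0.820), Uprt (0.796) and Dut (0.747) were nearest to Dctd. Tk1 had 0.031, and Rrm1 (-0.297), Rrm2 (-0.685), Tyms (-0.690) and Dck (-0.726) ran against it. Cad, the nearest, continued to fall at the second control step (-1.22), where Dctd differed by -0.18.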

How the data were processed

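Biotin-labelled total RNA of 13 sorted samples was measured on 1 array each. The values are log2 signals as deposited by the authors; RMA and the mm9 build are named, per the submitters' processing notes, without a version for RMA or a role for mm9. RMA corrects background, quantile-normalizes and summarizes probes, which compresses small signals. Scanner files were not used here.

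Of 35556 probe sets, 21789 list 1 gene symbol in the platform's gene table, 1621 several and 12146 none; the last 2 kinds were left out. Each of 19938 genes was read from its brightest probe set (highest mean of 13 arrays). A limma 3.58.1 fit in R 4.3.3 took in all arrays and 5 group means (8 residual and 5.56 prior degrees of freedom), two-sided, with Benjamini-Hochberg adjustment over all genes; a gene was called below 0.05. The fit was tested on simulated data. The number of arrays limits the precision. Tables and figures were made with matplotlib 3.10.9, numpy 2.4.6 and pandas 2.3.3 under Python 3.11.15.

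The members and lists were chosen with earlier results of these data known. Named were all 10 members, up to 3 called genes of the pathway list per direction and comparison with the smallest adjusted p, and the 5 genes most and least like Dctd by r, with predicted genes passed over. Motifs were searched in RefSeq promoters (GRCm38.p6). The alternatives were median centring, repeated quantile normalization, a filter on dim genes, averaged probe sets, robust eBayes with an intensity trend, array weights, R26EYFP genotype or the myeloid mean as a covariate, only the groups compared, embryo as a block and leaving out each array.

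The embryo number pairs the maturation steps, since arrays of 1 number come from 1 embryo, and no embryo links knockout with control. After removal of group means, same-embryo arrays correlated between -0.23 and 0.35 over 9 pairs, 4 of them over 0.1, and the consensus correlation was 0.00385.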

Additional observations from a re-analysis of the deposited data

How the results depend on the processing

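Counts below are of called genes among the 9 enzymes other than Dctd and among the 49 pathway genes. In the Ter119- CD71+ comparison the number called over all genes also changed with the setting, and the counts were not tested against it. For knockout against control in Ter119- CD71+ cells, the 3 enzymes became 1 with centred arrays, 8 with array weights, 0 with R26EYFP genotype or the myeloid mean as a covariate, and 0 to 4 when 1 array was left out; the 1 pathway gene became 0 after repeated quantile normalization, with either covariate or with only the groups compared, 14 with array weights, and 0 to 2 with 1 array left out. In Ter119+ CD71+ cells the 0 enzymes became 0 to 3 with 1 array left out (3 without knockout embryo 11, 1 without control embryo 13), and the 3 pathway genes became 1 with array weights or only the groups compared, 0 with R26EYFP genotype, and 2 to 7 with 1 array left out (7 without knockout embryo 11). At the second control step leaving out 1 array gave 3 to 7 enzymes against 6, and 10 to 20 pathway genes against 17, lowest without the CD71med array of embryo 15. At the knockout step the 5 enzymes became 3 with centred arrays, 2 with array weights or only the groups compared, 0 with the myeloid mean and 2 to 4 with 1 array left out; the 17 pathway genes became 9 with array weights, 5 with the myeloid mean and 4 to 23 with 1 array left out. The first control step and the interaction kept counts within 1.5 times of the main ones in every alternative run. With embryo as a fixed block the replicate pairing gave 6 enzymes at the first control step, 5 at the second and 5 at the knockout step, and changed no other call among the 9 than those given with Rrm2, Rrm1, Tyms and Uprt; as a random block it changed none.

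Signs turned for small differences. In Ter119+ CD71+ cells without knockout embryo 10, Dut was 0.11 and Umps 0.20, and without knockout embryo 11 Cad was -0.13; with 1 array left out Dut ranged from -0.33 to 0.11, Umps from -1.18 to 0.20 and Cad from -0.13 to 0.40. In the interaction, Rrm1 was -0.02, Rrm2 -0.03 and Umps -0.09 with the myeloid mean, Umps ranged from -0.46 (without the Ter119+ CD71+ array of knockout embryo 11) to 0.91 with 1 array left out, and Tyms was 0.03 after repeated quantile normalization, 0.02 with array weights, 0.0048 with R26EYFP genotype and -0.08 to 0.06 with 1 array left out. Tk1 at the first control step was 0.06 with the mean of its probe sets and -0.31 to 0.12 with 1 array left out, positive without either array of embryo 13. The causes were not tested. Dctd ranged over the alternatives from -3.88 to -3.20 at the first control step, from -3.82 to -2.72 at the knockout step and from -0.56 to 0.20 at the second control step. Its knockout differences ranged from -0.44 to 0.0018 in Ter119- CD71+ and from -0.58 to 0.53 in Ter119+ CD71+ cells.

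The groups hold 2 or 3 arrays. Where 1 of 2 was left out, the lone array was assumed to vary like the other groups.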
